A study of Mus musculus with 4 samples.

Results

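The window around Phlda1 covers 700 kb of mouse chromosome 10, from 111.3 to 112 Mb in mm10. It was chosen by the density, length and sharing of HOXA5-FLAG peaks in earlier results on these same libraries, so its peak number, peak length and sharing are given as descriptions, with no test. Its members are the peaks whose summit lies in the window, 12 of the 4289 peaks of replicate 1 and 6 of the 2832 peaks of replicate 2. Phlda1 is 1 of 21779 protein-coding genes in the annotation used. The working description of the window was that it holds shared peaks alone, and the lists go against it, since replicate 2 had a partner for 6 of the 12 replicate 1 peaks and none for the other 6.

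The peaks come from chromatin immunoprecipitation with sequencing (ChIP-seq), which maps where a protein sits on DNA, using an antibody to the FLAG tag. The 2 immunoprecipitates analysed were made from whole lungs of E15.5 mouse embryos of the genotype Hoxa5FLAG/FLAG, in which both copies of the endogenous Hoxa5 gene encode a tagged protein. The 2 input libraries of the same genotype were not analysed here, and neither was an untagged lung, so a peak cannot be told from a region of high background. The labels do not say how the 2 replicates were collected, so their spread may be technical. The lists hold no read counts, and depth is unknown.

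HOXA5 is a homeodomain transcription factor, active in the mesenchyme of the developing lung, and mouse embryos that lack it have malformed airways and lungs. HOX proteins bind short AT-rich sequences, often far from any promoter and often beside TALE homeodomain partners of the PBX and MEIS families. Phlda1, also called TDAG51, encodes a pleckstrin homology-like domain protein that is induced by growth factor and ERK signalling and has been linked to cell survival and cell death.

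All 12 replicate 1 summits and all 6 replicate 2 summits lay between Phlda1 (111506286 to 111508649) and Krr1 (111972695 to 111988430), the next protein-coding gene. Krr1 encodes a factor of small ribosomal subunit assembly, a role known from yeast. The interval between the 2 genes is 464045 bp long and holds no other protein-coding gene. It follows that no summit lay inside a protein-coding gene, and the share of all peaks inside one is not given here. No summit lay in the 206 kb of the window on the other side of Phlda1. That side holds Nap1l1, a histone chaperone gene 8136 bp from Phlda1, and Bbs10, a gene for a chaperonin-like protein of the cilium machinery. The peaks were thus all on 1 side of Phlda1.

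**Figure D1:**
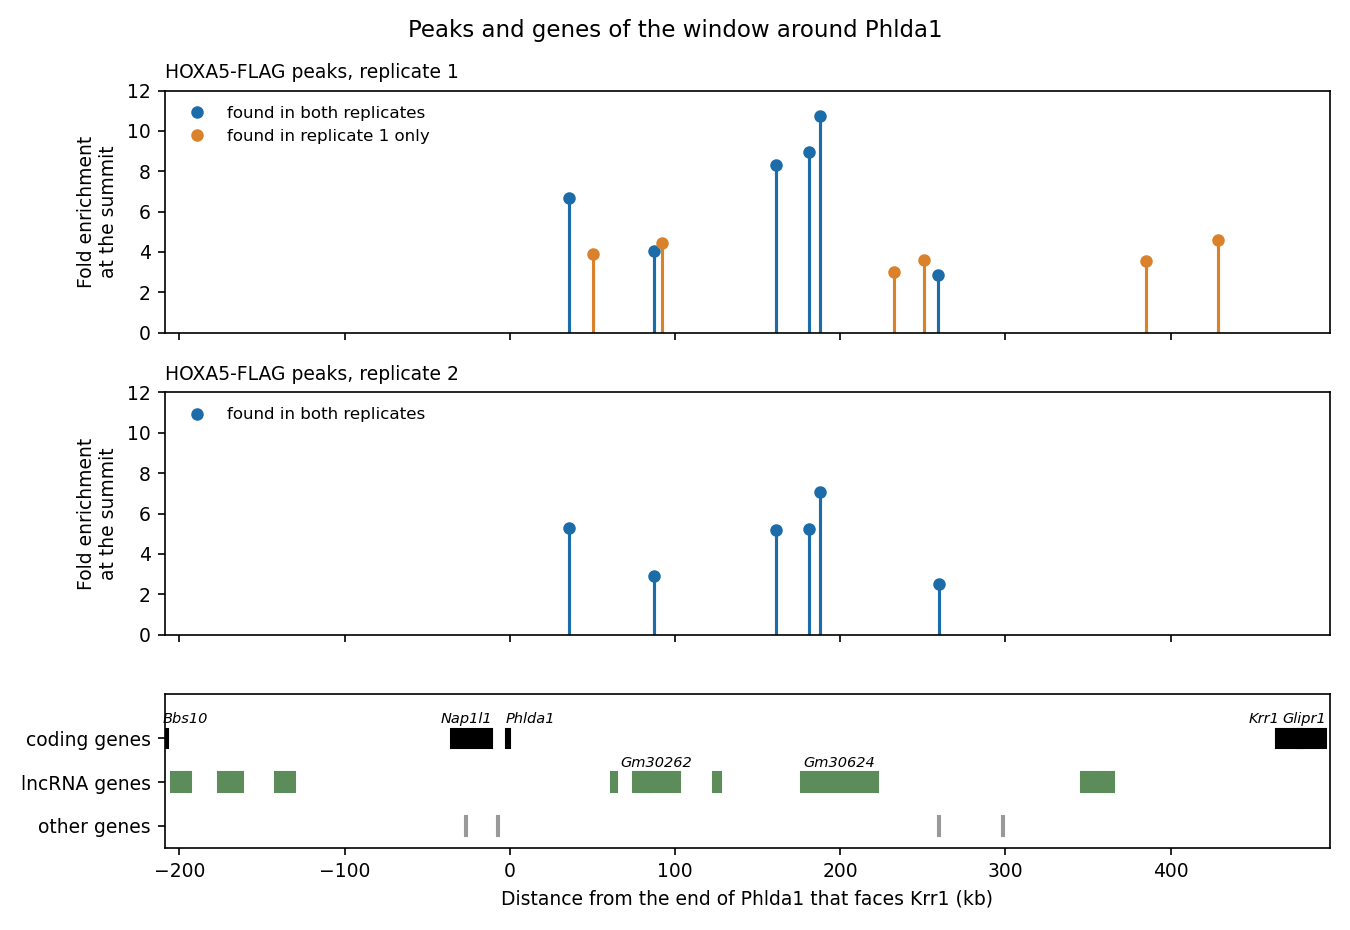
Each stem is a HOXA5-FLAG peak, placed by its summit's distance in kb from the end of Phlda1 that faces Krr1 (x axis), with its fold enrichment as its height (y axis). Blue stems are peaks found in both replicates and orange stems peaks of replicate 1 alone, with the annotated genes below. All stems stand between Phlda1 and Krr1, and the 3 tallest of replicate 1, of 8.33-, 8.94- and 10.7-fold, stand within 26.6 kb of one another.

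Sequence could be shown for 1 of these sites, because a member there overlaps a RefSeq promoter window, which runs from 250 bases before to 50 bases after an annotated transcription start (build GRCm38.p6). Of the peaks in the window, 1 of 12 in replicate 1 and 1 of 6 in replicate 2 overlapped such a window, against 2.61% of all replicate 1 peaks and 1.75% of all replicate 2 peaks on assembled chromosomes. Both are the same site, at an internal start of Gm30262, a long noncoding RNA (lncRNA) gene with 7 promoter windows. The 3 windows printed here are that start, and the starts before and after it, which carry no peak. Capitals mark matches on either strand to TAAT, the homeodomain core, and to TGACAG, the core bound by the TALE proteins MEIS and PREP.
Gm30262, plus strand, start under the shared peak, chr10:111595422-111595721: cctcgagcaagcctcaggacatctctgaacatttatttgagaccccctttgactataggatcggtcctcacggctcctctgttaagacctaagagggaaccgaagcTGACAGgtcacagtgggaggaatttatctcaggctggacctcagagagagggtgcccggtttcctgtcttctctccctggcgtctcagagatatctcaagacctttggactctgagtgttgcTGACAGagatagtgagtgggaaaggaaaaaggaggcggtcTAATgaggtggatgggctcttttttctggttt
Gm30262, plus strand, start before it, no peak, chr10:111593840-111594139: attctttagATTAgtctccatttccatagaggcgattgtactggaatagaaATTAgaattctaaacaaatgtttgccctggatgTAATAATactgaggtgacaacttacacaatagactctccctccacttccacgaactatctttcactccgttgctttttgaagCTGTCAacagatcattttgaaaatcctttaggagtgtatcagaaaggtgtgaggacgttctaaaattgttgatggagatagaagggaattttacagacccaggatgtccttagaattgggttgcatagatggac
Gm30262, plus strand, start after it, no peak, chr10:111599475-111599774: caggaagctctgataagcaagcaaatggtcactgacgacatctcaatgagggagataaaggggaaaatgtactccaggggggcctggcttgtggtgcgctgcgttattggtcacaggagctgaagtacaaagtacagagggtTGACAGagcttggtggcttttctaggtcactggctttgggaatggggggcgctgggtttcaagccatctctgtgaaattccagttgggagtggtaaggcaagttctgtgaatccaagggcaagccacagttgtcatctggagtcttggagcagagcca

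The start under the shared peak held 2 matches to TGACAG and 1 to TAAT. Of these, 1 TGACAG, at base 229 of the window, and the TAAT, at base 269, lay inside the peak of both replicates. The replicate 1 peak covered the last 171 bases of the window and the replicate 2 peak the last 135, apart from any base beyond the window. Both summits lay past the printed bases, 123 bp (replicate 1) and 105 bp (replicate 2) downstream of the start. The start before it held 4 matches to TAAT, of which a pair share 1 base and were counted separately, and 1 to TGACAG, with no peak. The start after it held 1 TGACAG and no TAAT.

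Both TAAT and TGACAG also occurred in windows without a peak. Only part of the peak, and neither summit, lies in its window, so the counts cannot show whether these letters set the site apart. Of all 32851 promoter windows in the table, 58.0% hold TAAT and 19.2% hold TGACAG. Around Phlda1, 13 of 18 windows held TAAT and 8 of 18 held TGACAG, with 3 pairs of these windows overlapping. Only the window under the peak held 2 matches to TGACAG. TGATNNAT, a composite of HOX and PBX sites searched on both strands, was in 0 of the 18 windows and in 8.85% of all windows. It can share letters with TAAT, and a match is a description of letters and not a bound site.

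The 6 sites found in both replicates are described next, in the order in which they lie from Phlda1. Each fold enrichment and −log10 q was deposited by the authors for a peak's summit, and it ranks that peak within its own list only. The closest site to Phlda1 (111544039 to 111544376 in replicate 1) lay 35.6 kb from the gene in replicate 1 and 35.5 kb in replicate 2. Replicate 1 gave it a fold enrichment of 6.65 and a −log10 q of 42.5. Replicate 2 gave it a fold of 5.27 and a −log10 q of 22.1. In the replicate 1 list 85.7% of all peaks had a lower fold, and in the replicate 2 list 87.4% did. It lay outside every annotated gene, 25.7 kb from the lncRNA gene Gm30193. The genes nearest to Phlda1 on its far side, Nap1l1 and the pseudogene Gm5176, were 46.1 and 42.9 kb from this summit in replicate 1.

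The second site is the one at the internal start of Gm30262 (111595551 to 111596024), 87.1 kb from Phlda1. It reached 4.07-fold and a −log10 q of 15.6 in replicate 1, and 2.92-fold and a −log10 q of 6.31 in replicate 2. That put it near the middle of the replicate 1 list, with 55.0% of peaks lower in fold, and in the lower part of the replicate 2 list, with 33.0% lower. Gm30262 spans 111583051 to 111611588, and the lncRNA gene 4933440J02Rik within its span, on the minus strand, has its annotated start 1522 bp from the replicate 1 summit.

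The next 3 sites were the most enriched of the window in replicate 1, and they lay within 26.6 kb. The first of them (111669558 to 111670004) was 161 kb from Phlda1, outside any gene, and reached 8.33-fold (replicate 1) and 5.21-fold (replicate 2). The second (111689610 to 111690153) followed 20.2 kb later, inside the lncRNA gene Gm30624, with 8.94- and 5.26-fold. The third (111696023 to 111696864) followed 6.46 kb after that, also inside Gm30624, with 10.7- and 7.06-fold. Gm30624 spans 111685034 to 111731355, and its annotated starts lay 4894 and 4891 bp before the nearest replicate 1 summit.

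The third of these sites was the highest of the window in both lists. In replicate 1 its fold ranked 213 of 4289, and 95.0% of peaks were lower. In replicate 2 it ranked 159 of 2832, and 94.4% were lower. It was also the longest member, at 842 bp in replicate 1 and 804 bp in replicate 2. The whole lists reach 58.1-fold in replicate 1 and 25.6-fold in replicate 2, so the site stands in the upper tail of each list but far from its top.

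The last shared site (111767958 to 111768377) lay 259 kb from Phlda1 and 205 kb from Krr1, and it was the weakest. Replicate 1 gave it a fold of 2.84, with 18.8% of its list lower, and a −log10 q of 5.07. Replicate 2 gave it a fold of 2.53, with 17.2% lower, and a −log10 q of 3.02. The whole peak lay inside Gm46193, an annotated pseudogene of 869 bp. The labels do not say how reads that match more than 1 place were treated, and their part in this peak was not tested.

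A further 6 peaks of the window were in the replicate 1 list alone. Their folds ran from 3.02 to 4.58 with a median of 3.76, and their −log10 q from 5.56 to 19.7. Going away from Phlda1, the first (111559061 to 111559360, 3.92-fold) lay 50.5 kb from the gene and 10.7 kb from Gm30193. The next (111600504 to 111600903, 4.45-fold) lay inside Gm30262, 92.1 kb from Phlda1 and 4.99 kb from the shared summit in the same gene.

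A further pair lay between the Gm30624 sites and the pseudogene, at 232 kb (111740553 to 111741117, 3.02-fold) and 251 kb (111759277 to 111759540, 3.60-fold) from Phlda1. The remaining 2 lay toward Krr1, with no replicate 2 peak within 100 kb of either. One (111893550 to 111893838, 3.53-fold) was 385 kb from Phlda1 and 79.0 kb from Krr1. The other (111936809 to 111937199, 4.58-fold) was 35.6 kb from Krr1 and is the replicate 1 peak closest to that gene. The nearest replicate 2 peak to the last one was 169 kb away.

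Of the replicate 1 members 6 of 12 had a partner in replicate 2, against 51.2% of all replicate 1 peaks. Of the replicate 2 members 6 of 6 had one, against 77.6% of all replicate 2 peaks. Sharing was part of how the window was chosen, so nothing is read from these counts. In replicate 1 the shared members ran from 2.84- to 10.7-fold, with a median of 7.49. The unshared ones ran from 3.02- to 4.58-fold, with a median of 3.76. The ranges overlapped, and the weakest member of all, inside the pseudogene, had a partner.

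**Figure D2:**
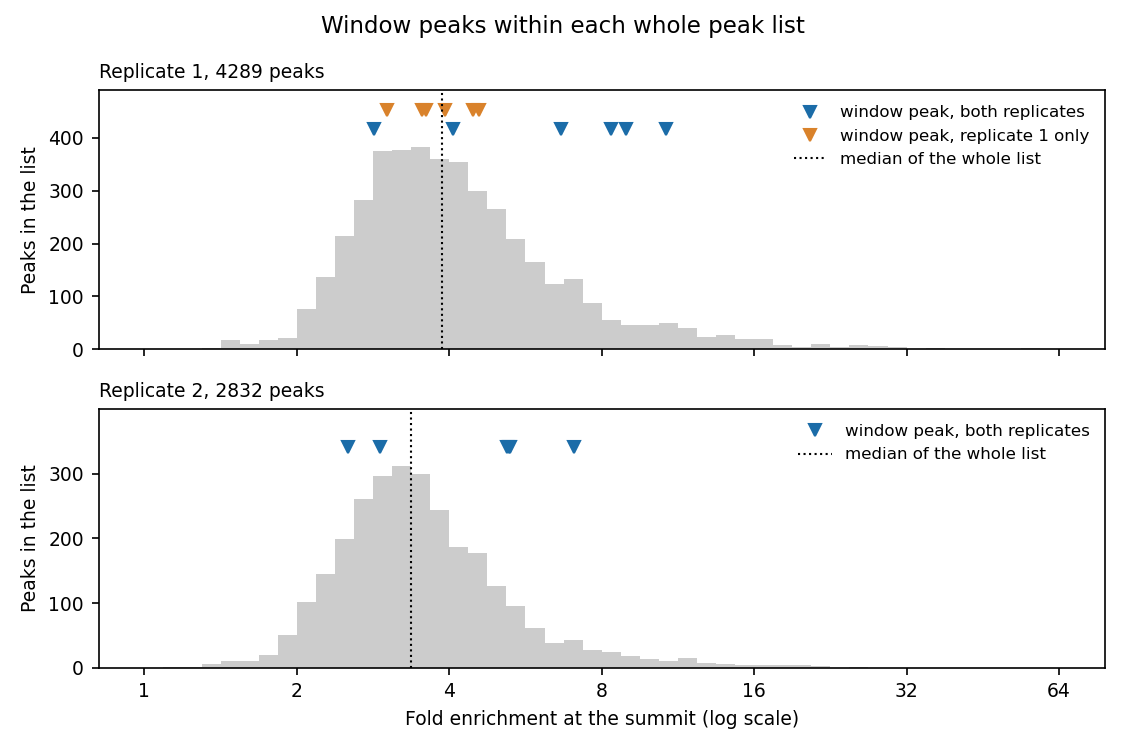
Grey bars count the peaks of each whole list by fold enrichment at the summit (x axis, log scale), and the triangles above them mark the members around Phlda1. In replicate 1, 8 of the 12 members lie above the list's median of 3.87-fold (dotted line), and in replicate 2, 4 of the 6 lie above its median of 3.36-fold.

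As a group, the members had a median fold of 4.26 in replicate 1 and 5.23 in replicate 2, against 3.87 and 3.36 over the whole lists. Median −log10 q was 15.3 in replicate 1 members and 22.5 in replicate 2 members, against 13.0 and 9.50 over the lists. Sharing helped to choose the window, and it went with fold in the list. Of all replicate 1 peaks above 4.58-fold, 64.9% had a partner, against 42.2% of those from 3.02- to 4.58-fold. Nothing is therefore read from the members' medians. The replicate 2 members are the 6 shared sites, which in replicate 1 had a median fold of 7.49. Each of the 6 had a higher fold in replicate 1 than in replicate 2, by 1.12 to 1.70 times, and 73.7% of all 2175 shared peaks did so too. Folds from separate lists are not on 1 scale, so this ratio describes the lists. The highest site and the 2 lowest sites were the same in both lists, and the 3 others, which lay between 5.21- and 5.27-fold in replicate 2, were in another order.

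**Figure D3:**
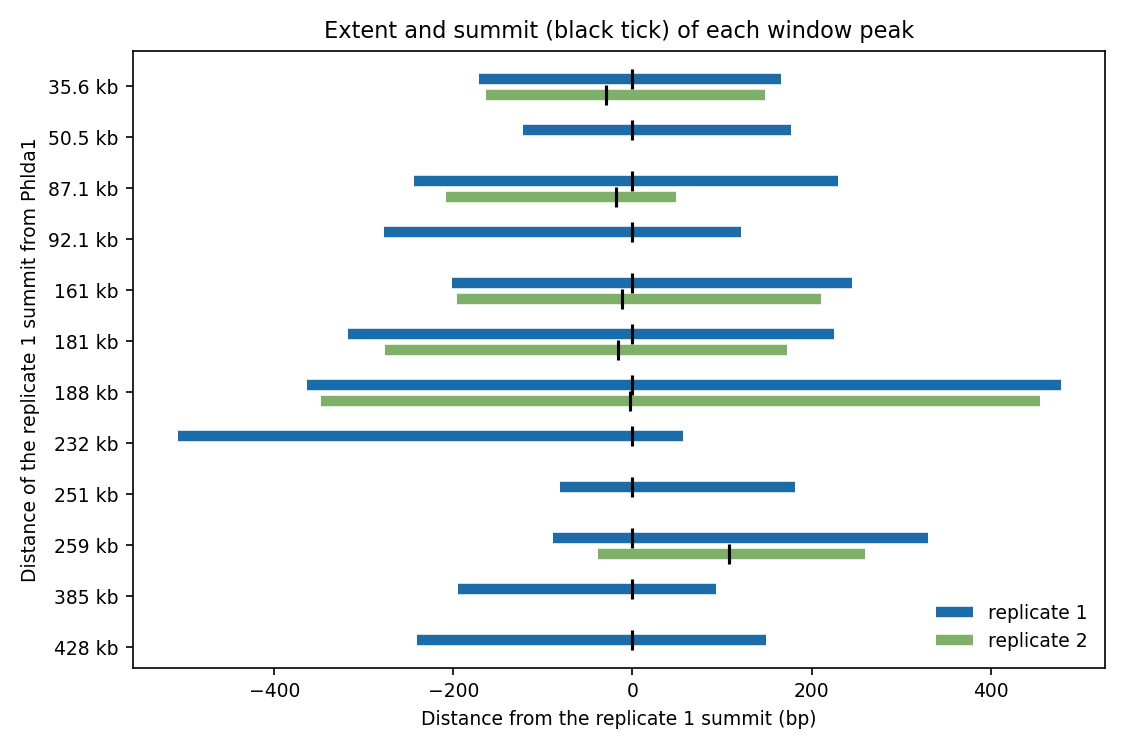
Bars show the extent of each replicate 1 member (blue) and of the overlapping replicate 2 member (green) in bp from the replicate 1 summit (x axis), with a black tick at each summit and 1 row per site, labelled by its distance from Phlda1. All 6 green bars lie within the blue bar above them, and 5 of the 6 pairs of summits are at most 30 bp apart.

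The summits of the shared sites were 30, 18, 12, 16, 3 and 108 bp apart, in order from Phlda1, with a median of 17 bp. The median was 32 bp over all shared peaks and 22 bp over those with no member above 1000 bp. Sharing and short length helped to choose the window, and both limit how far apart 2 summits can be. Nothing is therefore read from these distances. The widest gap, 108 bp, was at the pseudogene site. Each of the 6 replicate 2 peaks lay wholly inside its replicate 1 partner, as did 39.2% of replicate 2 partners over all shared peaks. Of those 2175 shared peaks, 1643 have no member above 1000 bp, and the share over these alone is not given here. The 2 shares are thus over unlike sets. All members were 1000 bp or shorter, with lengths from 264 to 842 bp in replicate 1 and from 258 to 804 bp in replicate 2. Over the whole lists 89.2% of replicate 1 peaks and 82.4% of replicate 2 peaks were that short.

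The members were spaced unevenly. Summits of neighbouring replicate 1 members were between 4.99 and 126 kb apart, with a median of 20.2 kb, and the 12 spanned 393 kb. Before the first member, neither list had a peak for 1388 kb, a stretch that holds 7 protein-coding genes, Phlda1 included. Besides Nap1l1 and Bbs10, they are E2f7, a cell cycle transcription factor gene, Csrp2, a LIM domain gene of smooth muscle, Zdhhc17, a palmitoyltransferase gene, and Osbpl8, a lipid transfer gene that ends 2751 bp before the window. The last peaks before that stretch lay inside Nav3, a gene for a microtubule-associated protein, and were different peaks in the 2 lists, at 110156473 to 110156754 in replicate 1 (3.86-fold) and at 110015068 to 110016511 in replicate 2 (3.23-fold). The replicate 2 peak there was also found in replicate 1, whereas the replicate 1 peak had no partner.

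On the other side, the first peak beyond the window was found in both replicates and lay inside Caps2, a gene for a calcium-binding protein, 174 kb outside the window. Its fold was 2.97 in replicate 1 (112173730 to 112174531) and 2.52 in replicate 2. Glipr1 overlaps the edge of the window and is a gene for a secreted CAP family protein. Neither it nor Glipr1l1, the next protein-coding gene, had a peak between the window and Caps2.

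**Figure D4:**
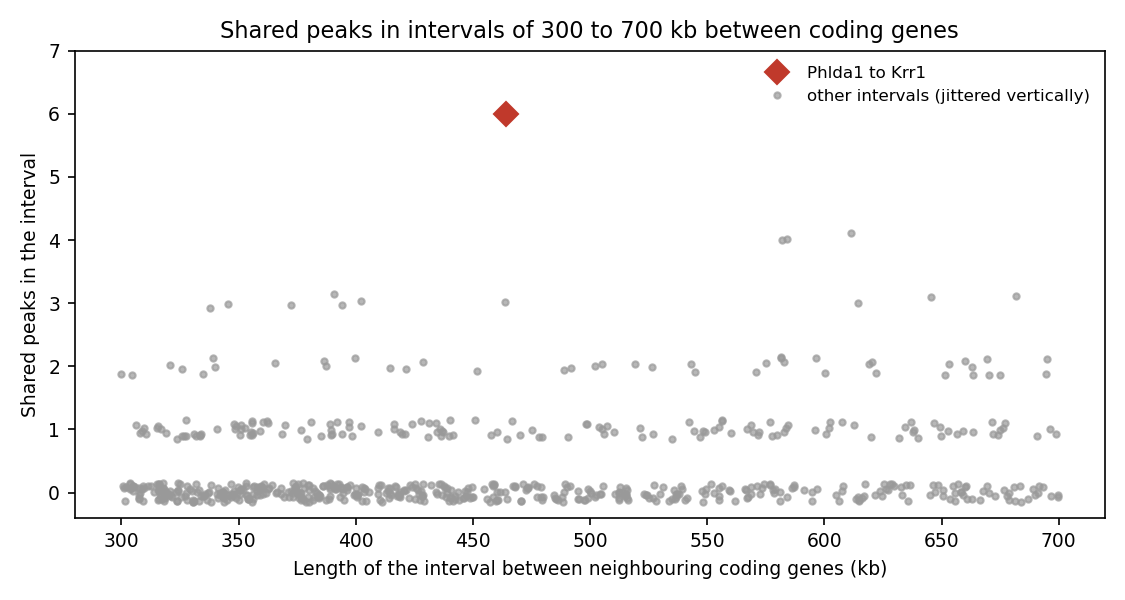
Each point is an interval of 300 to 700 kb between neighbouring protein-coding genes, by its length (x axis, kb) and the number of shared peaks in it (y axis), with the interval from Phlda1 to Krr1 as a red diamond. That interval holds 6, and the other 686 hold 4 or fewer.

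The interval from Phlda1 to Krr1 was set beside the other 686 intervals of 300 to 700 kb between protein-coding genes. It held 6 shared peaks, or 12.9 per Mb, against 0.880 per Mb over all 687 intervals with it included. Of the 687, 487 (70.9%) held none, and among the rest 3 held 4 and 10 held 3. Intervals on the X and Y chromosomes are included, and many of those on Y held no peak of either list. Its 12 replicate 1 peaks were also the highest count, and its 6 replicate 2 peaks were matched by 1 other interval. Density chose the window, so this is a description of how it stands out and carries no test.

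By nearest protein-coding gene, 7 of the 12 replicate 1 summits were closest to Phlda1 and 5 to Krr1. For replicate 2 it was 5 and 1. Within 100 kb, 2 shared peaks had Phlda1 as their nearest coding gene, and 0 had Krr1. Over the genome, 5.94% of protein-coding genes had at least 1 shared peak by the same rule, and 200 genes had 2 or more. With lncRNA genes, pseudogenes and other annotated genes counted as well, no shared peak was nearest to Phlda1. Of the 6, 3 lay inside an lncRNA gene and 1 in the pseudogene. The share of all shared peaks inside such genes is not given here, so nothing is read from these counts. The other 2, at 35.6 and 161 kb from Phlda1, lay nearer to the lncRNA genes Gm30193 (25.7 kb) and Gm30624 (15.3 kb). Nearness does not show which gene, if any, a site acts on, and no expression was measured in these libraries.

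A pair of gene lists was looked up for the same pattern. Of the PHLDA family, Phlda2, an imprinted gene that limits placental growth in mouse, and Phlda3, a p53 target that encodes an inhibitor of AKT, had no assigned shared peak. The shared peak nearest to Phlda3 lay 24.9 kb from it (chromosome 1, 135740953 to 135741422, 6.48- and 3.59-fold in replicates 1 and 2) but closer to another gene. The nearest to Phlda2 was 326 kb away. Around Phlda1, Phlda2 and Phlda3, 700 kb centred on the gene held 6, 1 and 2 shared peaks.

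A list of 10 genes that rise with growth factor and ERK signalling includes Phlda1, which was chosen for its shared peaks and is left out of the count. Of the other 9, 1 had an assigned shared peak, against 5.94% of all protein-coding genes. It was Etv4, an ETS factor gene induced by FGF in the lung, with a site 5.93 kb away (chromosome 11, 101791044 to 101791532) that reached 5.02-fold (replicate 1) and 3.60-fold (replicate 2). Dusp6, a phosphatase gene of the ERK pathway, had a shared peak at 33.7 kb (3.84- and 4.02-fold) that was nearer to another gene. Spry2, which encodes a feedback inhibitor, had its nearest at 159 kb. For Spry4, Etv5, Dusp4, Ccnd1, Epha2 and Epha4 the nearest was between 295 and 1100 kb away. No difference from the background was tested for this list.

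The genes whose surroundings were most like those of Phlda1 were found by counting peaks in 700 kb centred on each protein-coding gene. Phlda1 had 6 shared peaks of at most 1000 bp there and 4 further peaks, all of replicate 1. The median over 21779 genes was 0, 15374 genes (70.6%) had none, and 18 genes (0.0826%) had 6 or more, neighbours of one locus counted separately. The density of such peaks chose the locus, so these counts are descriptions and carry no test. By the closest counts, then the closest median fold, the 5 most like genes were Thap12 with 6 such shared peaks, and Eya4, Slc22a3, Pbx3 and Slc2a7 with 5 each. They had 6 to 9 replicate 1 peaks and 5 or 6 replicate 2 peaks, against 10 and 6 for Phlda1. The likeness is one of counts alone.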

How the data were processed

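One peak list per immunoprecipitate was used, as the authors deposited it, so peaks were called per replicate. Sample titles read wt, but the genotype label was followed, and peak names in the replicate 2 list bear a different replicate number from its title. Per the submitters' processing notes, tools included Bowtie2 2.5.2, SAMtools 1.18, bedtools 2.31.0 and MACS3 3.0.1, with mm10. The sources used here give no settings, control or filter. Each deposited row gives a fold enrichment (a ratio), a −log10 p, a −log10 q and a score, and the score was not used. Depth is unknown, and a deeper library could pass other peaks.

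From the lists, peaks overlapping by at least 1 bp were called shared, and chains were merged and placed at the replicate 1 summit. Positions are 1-based. Genes came from RefSeq (GRCm38.p6, the mm10 build) without strand, so distance runs to the nearer annotated end. Genes that start below 3000000 were dropped except on Y, as such positions were taken to be on scaffolds. Shared peaks were assigned to the protein-coding gene holding the summit, else the nearest within 100 kb. Promoter windows have strand and came from a second RefSeq table, in which Phlda1 was not matched.

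Genes named are those of the window, its neighbours, 2 gene lists and the 5 most like Phlda1. E2f7, Csrp2, Zdhhc17, Nav3 and Caps2 were named after their values were seen. The members and lists were chosen with earlier results of these data known. Interval functions were tested on planted intervals (Python 3.11.15, pandas 2.3.3). No statistical test was run.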

Additional observations from a re-analysis of the deposited data

How the results depend on the processing

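No paired analysis was possible because the 2 peak lists analysed belong to 1 group and no test was run. Of 70 values recomputed under other settings, 61 stayed within 1.5 times the count, the replicate spread or the interval given to the reported value. Many of the 61 could not move. The overlap rules cannot change the peaks or folds of a list, and every member was already at most 1000 bp long. Dropping 1 list also leaves the peaks of the other as they are. The 61 are therefore no measure of stability. The number of shared peaks assigned to Phlda1 (2) was 1 with folds of at least 3, 0 within 10 kb or with all annotated genes, and 5 with no distance limit. With 1 list used alone, and every peak of it counted, the shared peaks of the window ranged from 6 to 12, those assigned to Phlda1 from 2 to 4, and the distance of the nearest from 35.5 to 35.6 kb. The shares that are shared could then not be computed. By number of shared peaks the window ranked 6 among the 1457 tiles of 700 kb with a shared peak, with 4 tiles at 6 peaks, this one included. It ranked 3 of 1161 with peaks of at most 1000 bp alone, and 137 of 1493 with tiles shifted by 350 kb. There a tile boundary falls within the cluster, and the tile ranked, which holds the window's start, keeps 2 of the 6. The rest of the 6 lie in the next tile, which was not ranked. Of the 6 shared sites 5 remained with a −log10 q of at least 5, 5 with summits within 100 bp and 4 with a fold of at least 3. All 6 remained with reciprocal overlap of at least 0.5 of each peak. Which peaks pass is limited by a depth that is unknown, and 2 replicates give no error for a single fold.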
